A study of Mus musculus with 32 samples.

Results

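The comparison described here set cardiomyocytes at day 26 of differentiation against cardiomyocytes at day 12, to ask which miRNAs changed as the cells aged in culture after cardiac selection. Its members were chosen by the time label alone: the day 12 and day 26 arrays of 3 data sets (Affymetrix VSN, Affymetrix RMA and Febit VSN), 4 arrays in each, 12 of the 32 arrays of the series. All miRNAs of each table were tested, 609 on Affymetrix and 710 on Febit, of which 608 were on both. The study followed mouse ES cells through cardiac differentiation at days 0, 12, 19 and 26, with 2 independent experiments (a and b) a day and the same RNA on both array types. Affymetrix VSN is the main data set, Affymetrix RMA is the same arrays with another normalization, and Febit VSN is a second measurement of the same RNA, so it adds no cultures.

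All groups came from aPIG 44, a single clone of D3 ES cells that carries the alpha-MHC-Pac-IRES-EGFP vector, in which the alpha-myosin heavy chain promoter drives puromycin resistance and EGFP. Puromycin was given from day 9 to every culture of days 12 and 26, so both groups hold cells that survived selection for activity of a cardiac promoter. The day 12 cells were cardiobodies made into single cells and left for 6 h on fibronectin. For day 26 the sources differ: the methods give 14 days in dishes after seeding, while the labels give 21 days in spinner flasks and 6 h after seeding, and the time label was followed. Time since selection, time on the dish and age of the cells cannot be told apart. The RNA is bulk RNA, in which fewer cells of a type and less RNA per cell cannot be told apart.

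A miRNA is a short RNA that guides a silencing complex to messenger RNAs through its seed, the bases near its 5′ end, and miRNAs with 1 seed form a family. The let-7 family is known to be scarce in pluripotent cells and to accumulate as tissues mature, in the heart as elsewhere, while miRNAs of the miR-17-92 cluster and its paralogues are known for promoting proliferation. The muscle miRNAs miR-1, miR-133, miR-208 and miR-499 mark cardiomyocytes.

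The mature sequences of the 2 families the results turn on, and of the miR-99, miR-100 and miR-125 miRNAs encoded beside let-7, are shown because the measured changes differ between members that differ by few bases. Whether the array probes tell such members apart was not tested. Counts of called members may therefore not be counts of separate measurements. They are RefSeq sequences (GRCm38.p6), 5′ to 3′, with the seed (bases 2 to 8) in capitals. The names of the arrays are kept, which correspond to the 5p arms in RefSeq.
let-7a: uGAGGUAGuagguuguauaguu
let-7b: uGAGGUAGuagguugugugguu
let-7c: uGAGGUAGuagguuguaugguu
let-7d: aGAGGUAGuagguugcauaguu
let-7e: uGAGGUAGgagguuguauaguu
let-7f: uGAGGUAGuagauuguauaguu
let-7g: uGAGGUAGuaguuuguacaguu
let-7i: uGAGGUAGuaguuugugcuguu
miR-98: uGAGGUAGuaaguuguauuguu
miR-99a: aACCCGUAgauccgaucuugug
miR-99b: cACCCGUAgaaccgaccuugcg
miR-100: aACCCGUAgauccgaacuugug
miR-125a-5p: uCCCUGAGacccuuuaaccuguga
miR-125b-5p: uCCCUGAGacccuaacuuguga
miR-17: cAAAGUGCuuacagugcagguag
miR-20a: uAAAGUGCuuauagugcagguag
miR-20b: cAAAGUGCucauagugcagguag
miR-106a: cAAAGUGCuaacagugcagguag

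From day 12 to day 26 the miRNAs that rose on Affymetrix VSN were led by the let-7 family, with miR-99a, miR-100 and miR-125b-5p, then miR-148a, miR-221, miR-21, miR-31, miR-27b, miR-486 and miR-29a, and the miRNA that fell was miR-20b of the miR-106a to miR-363 cluster. In all, 20 of 609 miRNAs were called, that is, had a limma adjusted p (Benjamini-Hochberg over all miRNAs of the table) under 0.05: 19 higher at day 26 (3.12% of those tested) and 1 lower (0.164%). Changes are differences of log2 values, day 26 minus day 12, with the standard error of the fit (n = 2 arrays a day), and levels are given as arrays a and b in that order. The median change of all 609 was -0.03. Without day 12 a, day 12 b, day 26 a or day 26 b, 13, 11, 13 and 11 of the 20 stayed called with their sign, and 9 stayed called whichever array was left out: let-7a, let-7b, let-7c, let-7d, let-7f, let-7g, miR-98, miR-99a and miR-148a.

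**Figure D1:**
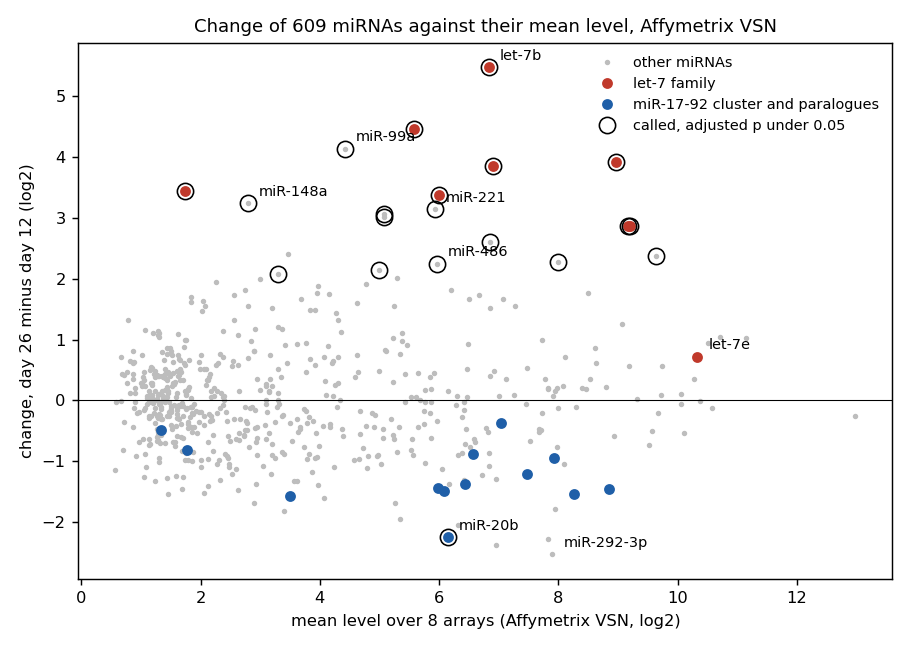
Change from day 12 to day 26 (vertical axis, log2) of the 609 miRNAs against their mean level over the 8 arrays (horizontal axis, log2), both on Affymetrix VSN. The let-7 family is red, the miR-17-92 cluster with its paralogues is blue, and circles mark the 20 called miRNAs, of which 19 lie above 0 and 1 (miR-20b) below.

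Of the 9 members of the let-7 family, 8 rose on Affymetrix VSN, beside 3.12% of all miRNAs called in that direction, and the median change of the 9 was 3.44. Febit VSN called 3 of the 9 (let-7a, let-7b and let-7e), beside 7.32% of all miRNAs called higher there, with a median of 2.82 and 8 of 9 above 0, and none with any 1 array left out. The Febit count became 7 without the day 0 arrays, 6 with the arrays of days 12 and 26 only and 1 with quantile normalization. let-7b stood at 3.75 and 4.89 at day 12 and at 9.73 and 9.86 at day 26. Its change of 5.48 ± 0.68 (SE, n = 2 a day, adjusted p = 0.00083) was the largest on the array. let-7f stood at 3.88 and 5.34 against 9.38 and 8.75, a change of 4.46 ± 0.56 (adjusted p = 0.00083). In both miRNAs the day 26 arrays lay far above those of day 12, and a and b were farther apart at day 12 than at day 26.

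let-7c rose by 3.92 ± 0.50 (adjusted p = 0.00083), from 7.22 and 7.91 to 11.47 and 11.51. let-7i rose by 3.85 ± 0.67 (adjusted p = 0.0047), from 6.21 and 6.94 to 10.45 and 10.40. let-7g rose by 3.38 ± 0.45 (adjusted p = 0.00096), from 5.70 and 5.93 to 9.21 and 9.19. Both arrays of day 26 were above both of day 12 in these members, and a and b lay close together at day 26. let-7d, at 8.75 and 8.95 against 11.75 and 11.70, and let-7a, at 8.97 and 9.39 against 12.05 and 12.04, had the smallest changes among the 8, 2.87 ± 0.48 (adjusted p = 0.0037) and 2.86 ± 0.44 (adjusted p = 0.0028). miR-98, which shares the seed but not the let-7 name, lay near background at day 12, at 0.33 and -0.01 against 3.97 and 3.23, a change of 3.44 ± 0.55 (adjusted p = 0.0036). At that level VSN is close to linear, so the change is no plain ratio, and RMA gave miR-98 a change of 0.94 ± 0.18 (adjusted p = 0.031).

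let-7e was the member without a call. Its levels were 11.30 and 11.18 at day 12 and 11.93 and 11.98 at day 26, which did not overlap but differed by only 0.72 ± 0.45 (adjusted p = 0.48). It differs from let-7a by the single substitution U9G (positions counted from the 5′ end, the base of let-7a first), and let-7f, which rose, also differs by 1 (G12A), while let-7b differs by 2 (A17G and A19G). The highest level of any miRNA was 12.22 to 13.87 on the 8 arrays, and whether the array still responds in proportion near the let-7e level was not tested. On Febit VSN the same RNA gave let-7e 8.05 and 6.65 against 9.57 and 10.76, a change of 2.82 ± 0.75 (adjusted p = 0.049).

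On Affymetrix RMA the same 8 members were called and let-7e was not (0.46 ± 0.38, adjusted p = 0.65). The largest RMA change was again that of let-7b, 4.20 ± 0.75 (18.4-fold, adjusted p = 0.027), and the most precise that of let-7g, 2.58 ± 0.13 (5.98-fold, adjusted p = 0.00036). With an array left out, 7 or 8 of the 9 stayed called on VSN (7 without day 12 a, where let-7i had 3.48 and an adjusted p of 0.051) and 2 or 3 on RMA. At day 19 the mean of every member lay between those of days 12 and 26. The passenger strands, which are made from the same hairpins and mostly degraded, were not called on Affymetrix VSN: let-7a*, let-7b*, let-7c-1*, let-7c-2*, let-7d*, let-7f*, let-7g* and let-7i* had changes between -0.69 (let-7f*) and 1.11 (let-7c-2*). On Febit VSN let-7g* was called higher, from 3.95 and 4.26 to 7.06 and 6.41 (2.63 ± 0.68, adjusted p = 0.046), with 7.82 and 6.34 at day 0. Its raw Febit intensities were 852 and 840 at day 12, where the array medians were 968 and 984. At day 26 they were 1040 and 232, close to the array medians of 992 and 228, so the signal stayed near background.

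**Figure D2:**
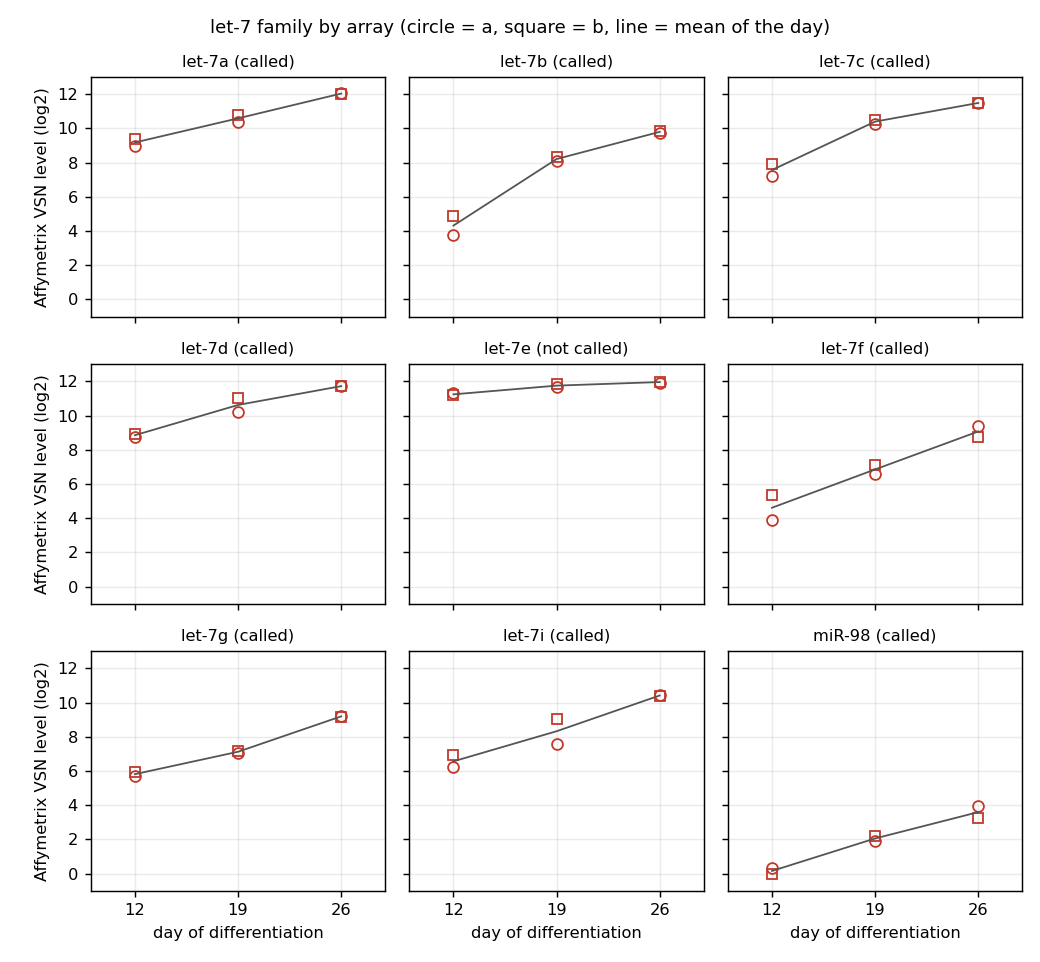
Levels of the 9 let-7 family members on Affymetrix VSN (vertical axis, log2) at days 12, 19 and 26 (horizontal axis). Circles are experiment a, squares experiment b and lines join the means of the days. All panels rise, let-7b most (5.48) and let-7e least (0.72, not called).

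Most let-7 genes lie in clusters with each other or with miR-99, miR-100 and miR-125 genes. On chromosome 16 (GRCm38.p6, chr16:77598936-77646339, plus strand) miR-99a, let-7c and miR-125b-2 lie together, and on chromosome 9 (chr9:41531425-41582002, plus strand) miR-100, let-7a-2 and miR-125b-1. Mature miR-125b-5p is 1 sequence made from both loci, as let-7a and let-7c are made from more than 1 locus. miR-99a rose by 4.14 ± 0.57 (adjusted p = 0.0011), from 3.74 and 2.22 to 7.12 and 7.11. Its level on day 12 b lay below that array's median of 2.71, so the change is no plain ratio. The RMA values gave miR-99a changes from 2.1 to 2.76 over all settings. miR-100, which differs from miR-99a by U16A, rose by 3.07 ± 0.59 (adjusted p = 0.0097), from 5.35 and 4.39 to 7.64 and 8.25. miR-125b-5p rose by 2.37 ± 0.58 (adjusted p = 0.044), from 9.40 and 9.09 to 11.43 and 11.80. In each of them both day 26 arrays were above both day 12 arrays, and the guide strands of both clusters were all called on Affymetrix VSN, where 3.12% of all miRNAs were called higher. On Febit VSN, where 7.32% were, 0 of 3 were called in the chromosome 16 cluster (changes from 1.49 to 2.86) and 2 of 3 in that of chromosome 9 (2.59 to 4.79).

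The cluster on chromosome 17 (chr17:17830194-17830879, plus strand) holds their counterparts miR-99b, let-7e and miR-125a, and none was called on Affymetrix VSN. miR-99b was at 10.86 and 10.44 against 10.41 and 10.47 (-0.21 ± 0.44, adjusted p = 0.88), and miR-125a-5p at 11.34 and 10.36 against 10.25 and 11.35 (-0.05 ± 0.52, adjusted p = 0.98). In both the days overlapped. All 3 were already above 10 at day 12. On RMA miR-99b fell by 0.83 (SE 0.17, adjusted p = 0.037), which is 1 of the calls lost when any of the 4 arrays was left out. On Febit VSN 1 of 3, let-7e, was called, and the changes of miR-99b and miR-125a-5p were 0.38 ± 0.58 and 1.58 ± 0.70, neither called. The difference in change between the clusters was not tested.

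The call of miR-125b-5p was the least firm of these. It was lost without each of the 4 arrays in turn, and RMA gave 1.72 ± 0.64 (adjusted p = 0.20). miR-100 was lost without day 12 b and without day 26 b, with changes between 2.28 and 3.56 over all alternatives. The other let-7 loci are let-7b with let-7c-2 on chromosome 15, let-7a-1, let-7f-1 and let-7d on chromosome 13, let-7f-2 with miR-98 on the X chromosome, let-7g on chromosome 9 and let-7i on chromosome 10, and the guide strands they encode were all called on Affymetrix VSN.

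**Figure D3:**
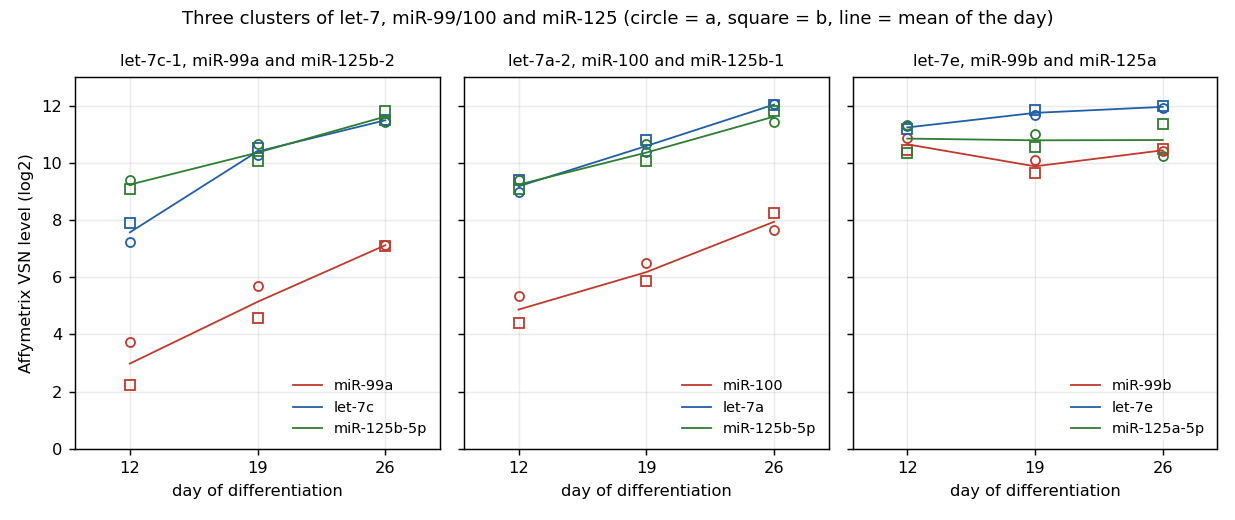
Levels on Affymetrix VSN (vertical axis, log2) at days 12, 19 and 26 (horizontal axis) of the miRNAs of 3 genomic clusters that pair a let-7 gene with a miR-99 or miR-100 gene and a miR-125 gene. Circles are experiment a, squares experiment b and lines join the means. Lines rise in the clusters of chromosomes 16 and 9 (left and middle), and changes lie between -0.21 and 0.72 in that of chromosome 17 (right).

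In the list of miR-21, miR-31, miR-221 and miR-222, miRNAs studied in growth and injury of heart and vessels, 3 of 4 rose on Affymetrix VSN, beside 3.12% of all miRNAs, with a median change of 2.8. Febit VSN called miR-21 and miR-31, 2 of 4, beside 7.32% of all. The list was chosen with earlier results of these data known, so both counts are a description and no separate support. miR-221 stood at 4.96 and 3.54 at day 12 and at 7.22 and 7.57 at day 26 (3.14 ± 0.57, adjusted p = 0.0068). miR-21 stood at 5.05 and 4.35 against 8.24 and 7.18 (3.01 ± 0.51, adjusted p = 0.0040), and miR-31 at 6.03 and 5.37 against 8.27 and 8.32 (2.60 ± 0.53, adjusted p = 0.015). Day 26 was above day 12 in all of them. miR-222, which shares its seed and its locus on the X chromosome with miR-221, was at 4.24 and 3.98 against 5.90 and 6.33 (2.01 ± 0.51, adjusted p = 0.058) and missed the threshold. On Febit VSN it stood at 5.70 and 7.14 against 5.02 and 5.53, opposite in sign (-1.15 ± 0.70, adjusted p = 0.31), and miR-221 at 3.87 and 5.76 against 7.37 and 5.75 (1.74 ± 0.87, adjusted p = 0.22), with the days overlapping.

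In the ES cells of day 0 miR-221 stood at 6.78 and 5.85 and miR-222 at 6.90 and 5.65, above both day 12 arrays, while miR-31, at 6.68 and 5.77, overlapped day 12. miR-21, at 1.84 and 2.28 at day 0, was below day 12. On RMA miR-21 was called (2.07 ± 0.38, 4.19-fold, adjusted p = 0.027) and miR-221 (2.03 ± 0.52, adjusted p = 0.085) and miR-31 (1.94 ± 0.51, adjusted p = 0.094) were not. Without day 12 b the calls of miR-221, miR-21 and miR-31 on VSN were lost, without day 26 a those of miR-21 and miR-31, and without day 26 b those of miR-221 and miR-31.

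miR-148a rose by 3.24 ± 0.53 (adjusted p = 0.0037), from 1.21 and 2.5 to 5.12 and 5.07. Both day 12 levels lay below the medians of their arrays (2.68 and 2.71), near background, so this change is no plain ratio either. RMA gave 1.30 ± 0.20 (adjusted p = 0.017). miR-152, with the same seed, was at 7.44 and 7.11 against 8.97 and 9.05 (1.73 ± 0.54, adjusted p = 0.11) and was called on RMA only (1.29 ± 0.20, adjusted p = 0.017). In both the day 26 arrays were above those of day 12.

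miR-27b, encoded with miR-23 and miR-24 family members, rose by 2.28 ± 0.48 (adjusted p = 0.018), from 8.24 and 7.84 to 10.33 and 10.32, and was 1 of 5 members called on VSN, beside 3.12% of all miRNAs. Its paralogue miR-27a was at 7.50 and 6.76 against 8.76 and 8.54 (1.52 ± 0.50, adjusted p = 0.12). miR-23b, at 11.11 and 10.54 against 11.76 and 11.99, was called on RMA only (0.67 ± 0.12, adjusted p = 0.027). All 5 members had day 26 above day 12, beside 146 of all 609 miRNAs, with a median change of 1.05.

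miR-29a, whose family is known for targeting collagen messages, rose by 2.15 ± 0.47 (adjusted p = 0.021), from 5.18 and 5.68 to 7.67 and 7.49. miR-29c was at 0.97 and 1.55 against 3.51 and 2.25 (1.62 ± 0.50, adjusted p = 0.11) and miR-29b at 1.44 and 1.49 against 2.89 and 2.05 (1.0 ± 0.51, adjusted p = 0.36). At day 19 miR-29a was at 4.8 and 5.15 on Affymetrix VSN, below both day 12 arrays, whereas Febit VSN placed it at 8.90 and 7.80, above its day 12 levels of 5.79 and 5.48. None of the 5 miR-30 miRNAs was called on VSN. All had day 26 above day 12, beside 146 of all 609 miRNAs, and their median change was 1.66. miR-30a was at 6.94 and 6.73 against 8.99 and 8.30 (1.81 ± 0.52, adjusted p = 0.084), and RMA called miR-30d (1.14 ± 0.14, adjusted p = 0.011) and miR-30e (1.04 ± 0.23, adjusted p = 0.049). The calls of miR-27b and miR-29a were lost without each of the 4 arrays in turn.

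Of the 9 cardiac and skeletal muscle miRNAs, 1 rose on Affymetrix VSN, beside 3.12% of all miRNAs, and 3 on Febit VSN (miR-499, miR-133b and miR-133a*), beside 7.32%. The Affymetrix call was miR-486, encoded in the ankyrin gene Ank1, at 5.37 and 5.68 at day 12 and 7.33 and 8.23 at day 26 (2.25 ± 0.48, adjusted p = 0.019), lost without day 12 a, day 12 b or day 26 b. The cardiomyocyte markers bore out the label as a sum. On Affymetrix VSN their summed level over 6 miRNAs was 9.49 to 11.93 at day 0, 36.13 to 37.93 at day 12 and 41.27 to 42.19 at day 26. Not every member did so: miR-208b, at 2.01 and 1.23 at day 12, overlapped its day 0 levels of 1.67 and 1.03. From day 12 to day 26, 5 of the 6 changes were above 0 on Affymetrix VSN, 3 on RMA and 6 on Febit VSN.

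miR-1, which restrains proliferation of cardiomyocytes, was at 10.25 and 9.60 at day 12 and at 11.52 and 11.88 at day 26. The arrays did not overlap, but the change of 1.77 ± 0.59 missed the threshold (adjusted p = 0.12), as it did on Febit VSN with 1.78 ± 0.63 (adjusted p = 0.11) and on RMA with 1.15 ± 0.34 (adjusted p = 0.10). miR-133a overlapped between the days, at 10.85 and 10.37 against 10.89 and 10.75 (0.21 ± 0.52, adjusted p = 0.90).

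None of the miRNAs encoded in myosin heavy chain genes was called on Affymetrix VSN. miR-208a was at 2.43 and 2.19 against 2.43 and 1.67 (-0.26 ± 0.48), with the days overlapping. miR-208b was at 2.01 and 1.23 against 3.16 and 3.18 (1.55 ± 0.47, adjusted p = 0.099), and miR-499 at 2.43 and 3.23 against 4.04 and 3.76 (1.07 ± 0.46, adjusted p = 0.27). The median level of an Affymetrix VSN array was 2.26 to 2.71. On Febit VSN miR-499 rose from 5.87 and 4.78 to 8.51 and 8.70 (3.28 ± 0.62, adjusted p = 0.021) and miR-133b from 6.78 and 7.36 to 9.51 and 9.94 (2.66 ± 0.62, adjusted p = 0.029). Raw Febit intensities of miR-499 were 936 and 868 at day 12 and 1384 and 488 at day 26. Those of miR-133b were 992 and 1064 at day 12 and 1920 and 912 at day 26. The array medians were 968 and 984 at day 12 and 992 and 228 at day 26. On Affymetrix VSN miR-133b was at 9.96 and 9.51 against 10.15 and 10.03 (0.36 ± 0.49, adjusted p = 0.78). miR-206, the skeletal muscle miRNA, was at 2.71 and 1.90 against 4.99 and 3.63 (2.00 ± 0.56, adjusted p = 0.079).

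In the other direction stood the miR-17-92 cluster on chromosome 14 (chr14:115043671-115044506, plus strand) and its paralogues on the X chromosome and chromosome 5. All 13 members had a change below 0 on Affymetrix VSN, from -2.24 to -0.37 with a median of -1.38. Of all 609 changes there, 47.9% were above 0. In 12 of the 13 both day 26 arrays lay below both day 12 arrays. Among all 609 miRNAs the days overlapped in 318, and 146 had day 26 above day 12. Of the 13 only miR-20b was called on Affymetrix VSN, beside 0.164% of all miRNAs called lower. It stood at 7.12 and 6.25 at day 12 and at 4.39 and 4.50 at day 26, a fall of 2.24 (SE 0.46, adjusted p = 0.016). miR-20b was already at 4.41 and 4.42 at day 19, the same level as at day 26. The call was lost without day 12 a, day 26 a or day 26 b (adjusted p = 0.15, 0.12 and 0.075).

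Affymetrix RMA, where the median gap between the arrays of a day was 0.16 to 0.18 against 0.42 to 0.48 on VSN, called 8 of the 13 lower, where 3.28% of all 609 miRNAs were called lower and 3.12% higher (20 and 19 miRNAs). miR-17 stood at 9.19 and 9.13 against 7.26 and 7.23, a fall of 1.91 (SE 0.19, 3.77-fold, adjusted p = 0.0045). miR-20a stood at 8.15 and 8.35 against 6.66 and 6.87, a fall of 1.48 (SE 0.15, 2.79-fold, adjusted p = 0.0045). The days of both were far apart compared with the gap between a and b. The others called were miR-92a, miR-20b, miR-19b, miR-18a, miR-106a and miR-93, with falls from 1.92 to 1.28, and miR-17*, the passenger strand of miR-17, fell by 1.34 (SE 0.13, adjusted p = 0.0045). The count of 8 became 2, 2, 3 and 4 without day 12 a, day 12 b, day 26 a and day 26 b, and 4 with quantile normalization. miR-17, miR-20a and miR-17* stayed called with any 1 array left out, while the adjusted p of miR-17 on VSN was 0.084. On VSN the 2 values of miR-17 at day 12 were 9.20 and 8.90 and at day 26 7.43 and 7.60.

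The 6 miRNAs with this seed (miR-17, miR-20a, miR-20b, miR-106a, miR-106b and miR-93) had Affymetrix VSN changes between -2.24 and -0.88. miR-20b differs from miR-17 by U10C and C12U. The smallest changes were those of miR-18b (2.01 and 2.1 against 1.45 and 1.05), miR-19a (1.93 and 0.94 against 1.48 and 0.42) and the third cluster's miR-25. None of these was called in any data set. The levels given for miR-18b and miR-19a all lay below the array medians of 2.58 to 2.71, so their changes are no plain ratio.

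Febit VSN did not give this direction. The median change of the 13 was 0.99 there, with 8 above 0 and 5 below, beside 50.6% of all 710 above 0. The member called lower was miR-363, from 6.88 and 7.18 to 4.89 and 4.21 (a fall of 2.48, SE 0.66, adjusted p = 0.049). Its raw intensities at day 12, 1000 and 1040, were already close to the array medians of 968 and 984. miR-20b was at 5.95 and 6.25 against 8.0 and 7.72 on Febit (1.76 ± 0.59, adjusted p = 0.093), opposite in sign to both Affymetrix data sets, without a call.

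**Figure D4:**
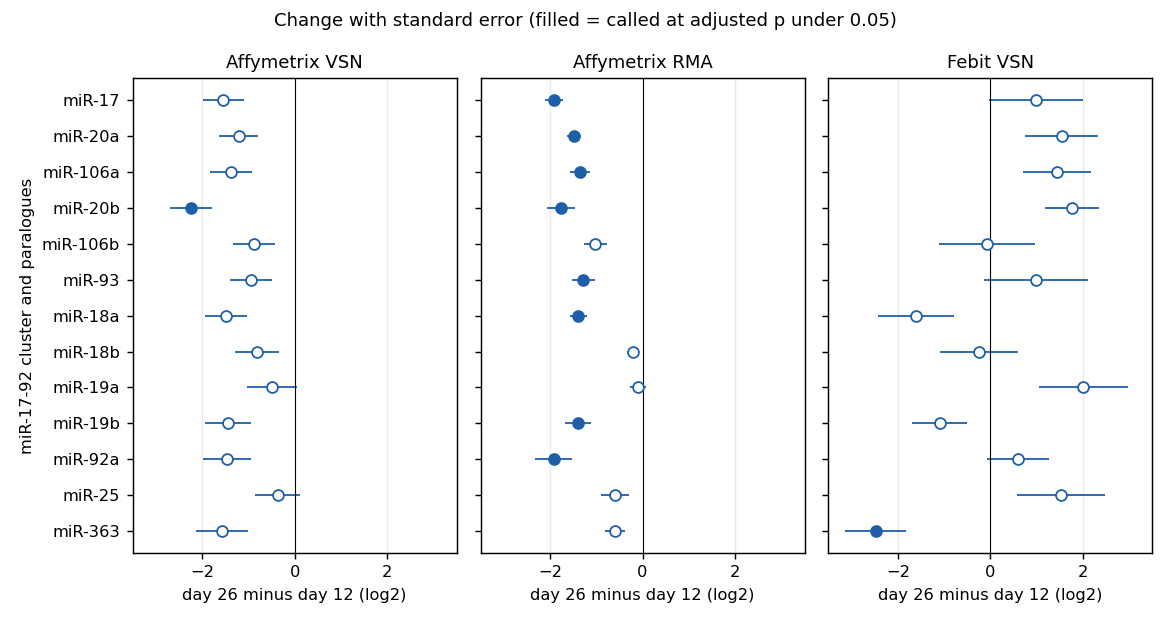
Change from day 12 to day 26 (horizontal axis, log2, bars are the standard error of the fit) of the 13 members of the miR-17-92 cluster and its paralogues in the 3 data sets. Filled points are called: 1 on Affymetrix VSN, 8 on Affymetrix RMA and 1 on Febit VSN, where 8 of the 13 points lie above 0.

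Among the other miRNAs called lower on RMA was miR-503. This miRNA, known for restraining the cell cycle, stood at 10.49 and 10.34 against 8.75 and 8.66 (a fall of 1.71, SE 0.19, adjusted p = 0.0080), and at 10.50 and 9.94 against 9.29 and 9.08 on VSN (-1.04 ± 0.44, adjusted p = 0.25). Of the 54 miRNAs of the imprinted Dlk1-Dio3 region, 3 were called lower on RMA (miR-127, miR-541 and miR-134), near the 3.28% of all miRNAs, and 0 on Affymetrix VSN, where the median was -0.15. miR-127 fell by 1.25 on RMA (SE 0.13, adjusted p = 0.0045), from 10.29 and 10.21 to 9.10 and 8.90, and stayed called with any 1 array left out. On Febit VSN 3 of the 54 were called higher, a share under the 7.32% of all miRNAs, and 1 (miR-154*) lower, beside 0.423% of all.

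The miR-290 to miR-295 cluster, which marks ES cells, had 12 of 14 members below 0 on Affymetrix VSN with a median of -1.04, and none was called in any data set. Of all 609 changes there, 47.9% were above 0. miR-292-3p, the lowest change on the array, was at 7.05 and 8.39 at day 12 and at 4.53 and 5.85 at day 26 (-2.53 ± 0.70, adjusted p = 0.079), against 12.12 and 12.68 at day 0. Experiment b was above a on both days, and the days did not overlap. The summed level of 11 ES cell markers was 62.51 to 64.02 at day 0, 42.47 to 48.28 at day 12 and 31.91 to 36.33 at day 26 on Affymetrix VSN. On Febit VSN it overlapped between the days, at 63.42 and 69.79 against 67.61 and 64.40. Their part in the other changes was not tested.

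Febit VSN called 55 of 710 miRNAs, 52 higher (7.32%) and 3 lower (0.423%), and none of the 55 stayed called when any 1 of the 4 arrays was left out: each of those fits called 0 miRNAs. The 10 largest calls were let-7a (4.79), miR-29a (4.62), miR-30a (4.53), miR-1274a (4.37), miR-466d-5p (4.27), miR-1939 (4.18), miR-100 (3.95), miR-21 (3.84), miR-24-2* (3.82) and miR-181a (3.54). let-7a was at 4.75 and 6.31 at day 12 and at 9.58 and 11.05 at day 26 (SE 0.80, adjusted p = 0.017). miR-30a was at 5.05 and 5.40 against 9.5 and 10.01 (SE 0.64, adjusted p = 0.017). The groups did not overlap in either, and the gap between the days was several times that between a and b.

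Much of this list sat near the background of the Febit array. Of the 52 miRNAs called higher, 45 had a raw day 12 intensity below the array's median on both arrays (217 of all 710 did), 41 had both day 12 VSN levels below both day 0 levels (180 of all 710), and 2 had a raw day 26 intensity over 2 times the array's median on both arrays. Of the 19 miRNAs called higher on Affymetrix VSN, 1 had day 12 below day 0 in that way. A call for a rise itself favours low day 12 levels, so these counts are a description and test nothing. No share of all miRNAs was computed for the day 26 count or the Affymetrix count. miR-466d-5p had raw intensities of 836 and 872 at day 12 and 1512 and 400 at day 26, where the array medians were 968 and 984 at day 12 and 992 and 228 at day 26. Its VSN level was 3.66 and 4.86 at day 12, 8.82 and 8.23 at day 26, and 7.49 and 9.65 at day 0. On Affymetrix VSN it was at 0.90 and 0.41 against 1.04 and 1.58 (0.65 ± 0.52). miR-21 was well above that background at day 26, with raw intensities of 3729 and 1901.

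The day 26 b array had the low raw median of 228, against 928 to 992 on the other 7 Febit arrays. The rank correlation of Febit VSN levels was 0.480 between the day 12 arrays and 0.774 between those of day 26, and 0.081 to 0.296 between the days. On Affymetrix VSN the corresponding values were 0.907, 0.902 and 0.866 to 0.879. Without day 26 b no Febit miRNA was called, as without each of the other 3 arrays.

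Of the Febit calls, 7 belonged to miRNAs held by that array alone, among them miR-1274a, at 4.56 and 4.70 against 9.52 and 8.49 (SE 0.76), miR-1939, at 3.73 and 4.55 against 8.35 and 8.28 (SE 0.69), and miR-1897-5p, at 7.22 and 4.70 against 8.82 and 9.35 (3.12 ± 0.81, adjusted p = 0.046). In all 3 both day 0 arrays were above both day 12 arrays, miR-1274a at 7.96 and 10.00. The miRNAs that fell were miR-154* (a fall of 2.99, SE 0.64, adjusted p = 0.024), miR-363 and miR-126-5p (a fall of 2.36, SE 0.62, adjusted p = 0.046), with raw day 26 intensities of 780 and 152, 852 and 152, and 784 and 156, all below their array's median. Their raw day 12 intensities were 992 and 1052, 1000 and 1040, and 952 and 996, already close to the array medians of 968 and 984.

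Of the 608 common miRNAs 6 were called on both VSN platforms, all higher at day 26 on each: let-7a, let-7b, miR-100, miR-21, miR-29a and miR-31. They are 30% of the 20 Affymetrix calls and 12.5% of the 48 Febit calls on common miRNAs, and no miRNA was called in opposite directions. Of the 20 Affymetrix calls, 18 had the same sign on Febit, the exceptions being miR-98 (-0.33 ± 0.68 on Febit) and miR-20b. Of the 48 Febit calls, 31 had the same sign on Affymetrix. Across all 608, 50.7% had the same sign, and the changes correlated with Pearson's r of 0.22 and Spearman's rho of 0.10. This describes 2 measurements of the same RNA across miRNAs, which are no independent replicates.

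miR-21 stood at 7.51 and 6.93 at day 12 and at 10.94 and 11.17 at day 26 on Febit (3.84 ± 0.64). miR-29a was at 5.79 and 5.48 against 9.69 and 10.80 on Febit (4.62 ± 0.78), and miR-31 at 4.56 and 4.70 against 7.91 and 8.10 (3.37 ± 0.58). Raw Febit intensities of miR-31 were 880 and 864 at day 12 and 1200 and 380 at day 26. Those of miR-29a were 932 and 904 at day 12 and 2061 and 1516 at day 26. The array medians were 968 and 984 at day 12 and 992 and 228 at day 26. With RMA in place of VSN on the Affymetrix side 5 remained, miR-31 being lost. Leaving out an array could not test the shared calls, because the Febit fit then called no miRNA at all.

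**Figure D5:**
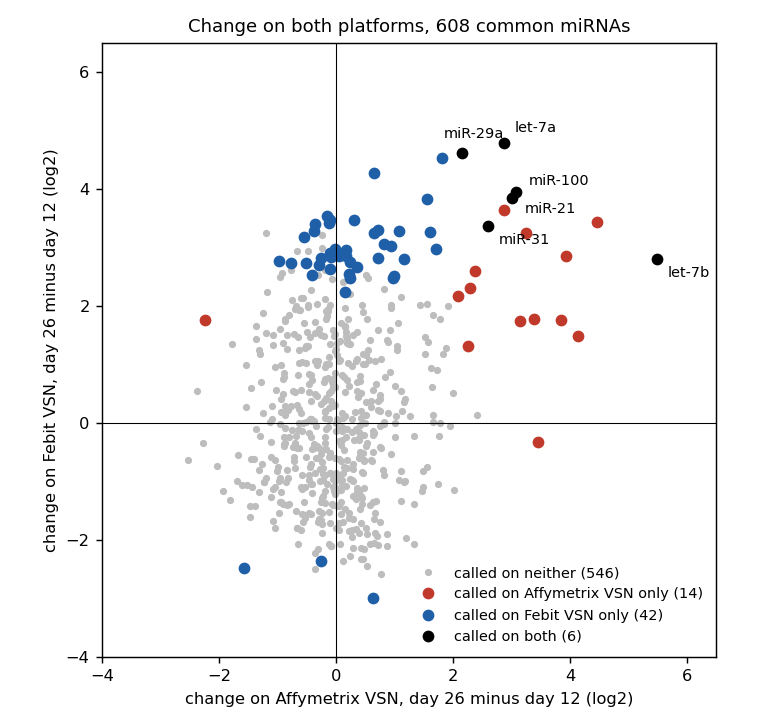
Change from day 12 to day 26 (log2) of the 608 common miRNAs on Affymetrix VSN (horizontal axis) and Febit VSN (vertical axis). Black points are the 6 called on both, red and blue points those called on Affymetrix or Febit alone.

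By day 19, the called miRNAs of Affymetrix VSN had covered a median of 47.6% of their rise, and in 16 of 19 both day 19 arrays lay between those of days 12 and 26 without overlap. The shares ran from -21.1% (miR-29a) to 102% (miR-486, at 8.20 and 7.46 at day 19). On Febit VSN the 52 had covered a median of 95.7%, and 18 of 52 had day 19 apart between the other days. These shares and counts use the day 12 and day 26 values that the calls rest on, and are given as a description. No such count was computed over all miRNAs.

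Markers of other cell types were not called on Affymetrix VSN. The 4 fibroblast and mesenchyme markers all had changes above 0, from 1.32 to 1.77, beside 47.9% of all miRNAs above 0. Their summed level was 12.03 to 14.31 at day 12 and 17.20 to 20.94 at day 26. miR-199b was at 3.58 and 4.07 against 6.25 and 4.93 (1.77 ± 0.57, adjusted p = 0.12). On Febit VSN the same 4 were below 0, with sums of 29.55 to 32.89 against 26.55 to 27.27. ES cells were kept on mouse embryonic fibroblasts before differentiation, and puromycin from day 9 selects against cells without an active alpha-MHC promoter. The part of such cells in the changes was not tested.

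The endothelial markers miR-126-3p and miR-126-5p overlapped between the days on Affymetrix VSN (3.43 and 4.28 against 4.06 and 2.74, and 0.62 and 1.99 against 1.77 and 0.31). The 6 blood markers lay between 0.67 and 2.66 on all 4 Affymetrix arrays, whose medians were 2.58 to 2.71, and summed to 8.18 to 9.75 at day 12 and 10.46 to 12.14 at day 26. On Febit VSN their sums went the other way, 37.68 to 40.33 at day 12 against 31.10 to 32.46 at day 26, with 1 of 6 changes above 0. The smooth muscle miRNAs miR-143 and miR-145 were high on both days (11.63 and 11.45 against 11.55 and 11.70, and 12.10 and 11.66 against 11.23 and 11.45). Neither was called, and the days overlapped in miR-143 only. The nervous tissue markers miR-124, miR-9 and miR-137 overlapped between the days, and the epithelial markers had changes from -1.05 to -0.43, none called. miR-122, the liver miRNA, was at 4.53 and 4.19 against 3.88 and 3.42 (-0.71 ± 0.47).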

How the data were processed

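RNA of days 12 and 26 (experiments a and b) was measured on Affymetrix GeneChip miRNA arrays and Febit Geniom biochips. The authors deposited log2 values of the Affymetrix arrays after RMA and after VSN, and log2 values of the Febit arrays after background correction, a median over 8 features a miRNA and VSN. The raw Febit intensity values that the authors deposited (8 features a miRNA, 620 features missing over the 8 arrays) were used to show signal over background and as an alternative. Per the methods, both Affymetrix normalizations were run in Bioconductor under R. VSN is a generalized log2 that becomes linear near background, so changes of dim miRNAs depend on it. Febit tables without VSN were left out. miRNAs were matched by name.

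Day 26 was set against day 12 with limma 3.58.1 under R 4.3.3, separately in each data set, in a linear model with 1 mean for each of the 4 days, so that all 8 arrays informed the moderated variance. miRNAs were called at an adjusted p under 0.05 (Benjamini-Hochberg, all miRNAs of the table). The fit was tested on simulated data. P-values measure the spread between 2 independent experiments a day, and the number of arrays limits the precision. Other normalizations, filters, variance priors, sample sets, a replicate block and leaving out each array were tried. Named are the 12 highest and lowest calls on Affymetrix VSN (or all), up to 10 a direction on Febit VSN, up to 4 of the largest changes in each of 29 lists, up to 4 Febit-only miRNAs and cell type markers. Others were added after their values were seen: RMA calls, miR-676*, miR-17*, partner and passenger strands, other members of clusters and seeds, and miR-378. The members and lists were chosen with earlier results of these data known. RefSeq sequences matched 18 of the 20 called miRNAs. Figures were drawn with Python 3.11.15 and matplotlib 3.10.9.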

Additional observations from a re-analysis of the deposited data

How the results depend on the processing

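On Affymetrix VSN the 20 calls (19 higher, 1 lower) became 9 (9 and 0) with quantile normalization between arrays and 39 (19 and 20) with RMA values, and 12 to 16 with an array of day 12 or 26 left out (the lone array of a day is then assumed to vary like the others). Of the 19 called miRNAs named by rule, 9 kept call and sign with quantile normalization and 11 to 13 with an array left out. On Febit VSN the 55 calls (52 higher, 3 lower) became 122 (90 and 32) without the day 0 arrays, 0 with centred raw intensity and 0 to 0 with an array left out, and quantile normalization gave 42 (32 and 10). On Affymetrix RMA the 39 calls (19 and 20) became 24 (16 and 8) with a variance prior that follows the level, 26 (17 and 9) with quantile normalization, and 8 to 16 with an array left out. With an array left out the 6 calls shared by the platforms were bound to vanish with those of Febit VSN, so this does not test them. These counts at 0 come from limma alone, and 197 Febit miRNAs had an unadjusted p under 0.05 in the fit of all arrays. The cause of each shift was not tested.

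No call reversed under any alternative. Centring the Affymetrix VSN arrays moved the median change of all miRNAs from -0.03 to 0.07, and quantile normalization moved that of Febit VSN from 0.02 to -0.10. In the let-7 family 6 of 9 stayed called higher with quantile normalization on Affymetrix VSN. No source used here says that a letter marks a shared culture across days, so with 2 letters they were treated as names only. The differences between a and b at day 12 and day 26 correlated at 0.05, -0.13 and 0.11 over the miRNAs of Affymetrix VSN, Febit VSN and Affymetrix RMA. With the letter as a replicate block the counts were 29, 40 and 49, and 6 on both platforms. Crossed letters on the 4 Febit arrays of days 12 and 26, chosen after seeing the data, gave 130 calls. With 2 arrays a day, a permutation test of 1 miRNA could not go below 0.333.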

Other observations

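Among miRNAs outside the lists, miR-676* was the only Affymetrix VSN call, picked out after its values were seen. It stood at 2.68 and 3.28 at day 12 and at 4.60 and 5.52 at day 26 (2.08 ± 0.52, SE, n = 2 arrays a day, adjusted p = 0.049 by limma). The day 12 levels lay near the array medians of 2.68 and 2.71, so the change is no plain ratio. This call was lost with RMA, quantile normalization, a variance prior that follows the level, and without the day 0 arrays. Changes of miR-676* ran from 0.94 to 2.54 over all settings. The partner strand miR-676 stood at 7.13 and 7.83 against 8.86 and 9.41 (1.66 ± 0.46, adjusted p = 0.079). The passenger strands miR-21* and miR-31* were dim on Affymetrix VSN and had changes of 0.34 ± 0.64 and 0.64 ± 0.57, beside 3.01 and 2.60 for miR-21 and miR-31.

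miRNAs encoded in metabolic genes were not called on Affymetrix VSN. miR-378, from the gene of a coactivator of mitochondrial metabolism, was at 10.78 and 10.69 against 10.66 and 10.86 (0.02 ± 0.46). The H19 and Igf2 locus had 4 of 4 changes below 0 (median -0.88, 0 called, and 0.77 on Febit VSN), with miR-675-5p at 3.5 and 3.58 against 1.76 and 2.29 (-1.52 ± 0.52, adjusted p = 0.13). The Clcn5 locus had 7 of 9 below 0 on Affymetrix VSN (median -0.61, 0 called), whereas Febit VSN had 6 of 9 above 0 (median 1.03, with miR-501-3p called higher) and RMA called miR-500 lower. Of the Sfmbt2 cluster families 50 were measured on Affymetrix with 0 calls and a median of -0.03, and 54 on Febit with 3 called higher, a share under the 7.32% of all miRNAs, and a median of 0.92. In the miR-181 family miR-181a was at 8.38 and 7.4 against 7.17 and 8.29 on Affymetrix VSN (-0.16 ± 0.60), whereas Febit VSN gave 4.38 and 5.17 against 8.02 and 8.61 (3.54 ± 0.71, adjusted p = 0.022).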
